A study of Mus musculus with 9 samples.

Results

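The small heat shock protein genes described here are Hspb1, Hspb2, Hspb3, Hspb6, Hspb7, Hspb8 and Cryab, 7 of the 24537 genes listed in the deposited comparison of sham quadriceps muscle with sham heart. They were chosen by name, as the muscle members of the family, and they occupy 11 of the 35745 transcript rows of that table. All 11 rows passed the count filter (over 5 reads in 2 libraries or more), and 24280 rows were tested in all. The libraries came from C57Bl6 mice (male C57Bl/6JCrl by the methods of the study). The mice had sham surgery, the operation without constriction of the aorta, and were killed 12 weeks later. Their age at surgery is taken as 8 weeks, the lower end of the range in the methods of the study. There were 3 libraries of sham heart and 3 of sham quadriceps muscle, and the sources used here name no transgene and no drug for either group. The region of the heart is not given, and the extraction protocol in the labels names only the quadriceps for all samples. The series also holds 3 quadriceps libraries from mice whose aortic arch was narrowed over a 27 gauge needle (TAC), but the deposited table for TAC lists 587 genes and 0 of the 7 members, so TAC is not described. The study calls its RNA sequencing replicates biological, a term it uses for mice, samples or culture dishes, and neither it nor the labels say that each library was a separate animal, so the p-values measure the spread between these libraries.

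Small heat shock proteins share an alpha-crystallin domain, form oligomers and hold partly unfolded proteins so that ATP-dependent chaperones such as Hsp70 can refold them or pass them on for degradation. In striated muscle they sit at the Z-disc, on desmin filaments and on filamin, where contraction puts proteins under mechanical strain. Cryab is alphaB-crystallin, Hspb1 is known as Hsp25 in the mouse, and Hspb8 works with the cochaperone Bag3 in the removal of damaged filamin. Hspb2 binds the myotonic dystrophy protein kinase and forms complexes with Hspb3, Hspb6 is known as Hsp20, and Hspb7 is a cardiovascular member that binds filamin C and thin filament proteins.

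Summed over 10 markers of cardiac muscle, the heart libraries held 39036 to 42069 CPM (counts relative to library size, scaled with TMM as explained below) and the quadriceps libraries 100 to 263 CPM. The sum over 10 markers of fast skeletal muscle was 21.3 to 28.5 CPM in the heart and 86385 to 113304 CPM in the quadriceps, so each tissue carried the markers of its label. Single cardiac markers differed between heart libraries 1, 2 and 3. Myl7 had 43.6, 3.26 and 0.07 CPM, and Nppa had 457, 398 and 186 CPM. Whether the heart libraries held different regions was not tested. Library totals were 33102826 to 38382751 counts in the heart and 23383452 to 32989108 counts in the quadriceps. All 10 endothelial markers, 5 of 5 tested erythrocyte markers, 4 of 6 tested leukocyte markers and 4 of 8 fibroblast markers were lower in quadriceps, and 6 of 7 tested adipocyte markers were higher. Of 8 slow fibre markers 4 were higher and 4 lower, of 10 smooth muscle markers 3 were higher and 4 lower, and of 6 nerve markers 3 were higher. These counts are with TMM, and with library totals 6 of 6 leukocyte and 8 of 8 fibroblast markers were lower, 1 smooth muscle marker was higher and 6 lower, 3 slow fibre markers were higher and 4 lower, and 3 nerve markers were higher and 2 lower, while the other marker lists kept their counts. The sum over the endothelial markers was 550 to 590 CPM in the heart and 177 to 208 CPM in the quadriceps, and that over the smooth muscle markers, which include desmin (Des) of striated muscle, was 1346 to 1452 CPM and 1663 to 2127 CPM. The sum over the adipocyte markers was 235 to 305 CPM in the heart and 197 to 522 CPM in the quadriceps, so the tissues overlapped in this sum. The 4 lower slow fibre markers, Atp2a2, Casq2, Myoz2 and Myh7b, had means of 7028, 738, 474 and 96.9 CPM in the heart. The split of this list therefore does not describe slow fibres alone. In whole tissue, fewer cells of a type and less RNA per cell cannot be told apart, and the part of cell composition in the results was not tested.

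The scale between the tissues had to be chosen before any member could be called higher or lower. TMM (trimmed mean of M values) assumes that most transcripts do not shift, and gave factors of 1.29 to 1.31 in the heart and 0.73 to 0.83 in the quadriceps. With TMM the median log2 fold change of all tested transcripts was -0.06, and with plain library totals it was -0.80. Fold changes below are quadriceps over heart on the TMM scale unless another scale is named. Quadriceps library 3 stood apart from the other quadriceps libraries for Cryab, Hspb1 and Hspb7, and values without it are given for these genes.

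The members sit at 6 places in the mouse genome build GRCm38, to which mm10 corresponds. Hspb1 lies at chr5:135887919-135889563 on the plus strand, Hspb3 at chr13:113662896-113663676 on the minus strand, and Hspb6 at chr7:30552178-30555443 on the plus strand. Hspb7 lies at chr4:141420779-141425311 on the plus strand and Hspb8 at chr5:116408491-116422864 on the minus strand. Hspb2, at chr9:50751078-50752354 on the minus strand, and Cryab, at chr9:50751325-50756636 on the plus strand, lie on opposite strands, and their annotated exons share 252 bases. Whether the counting used strand is not given in the sources used here, so reads from these shared bases cannot be assigned to either gene. Of the 50-base words of Hspb2, 28.0% occur in Cryab. Hspb6 shares 122 exon bases with Proser3 and 3 with Lin37, both on the opposite strand, and 77 with the microRNA gene Gm38670 on its own strand. Of the 50-base words of the Hspb1 transcript, 51.6% also occur in the pseudogenes Gm9817 and Hsp25-ps1, so the level of Hspb1 is uncertain wherever such reads were dropped or split. In the transcript searched for each gene, no 50-base word of Hspb3, Hspb6 or Hspb8 occurs in another gene, and in Hspb7 the share is 0.70%. For Hspb6 this transcript had 1363 bases, beside 2299 exon bases of the gene.

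Promoter sequences of RefSeq on GRCm38.p6, 250 bases before to 50 after the start of transcription, were found for 5 of the 7 members, with 6 sequences in all. The windows were searched on both strands for a pair of inverted heat shock element units (GAANNTTC or TTCNNGAA, the second in no member window), the E-box CANNTG, the TATA box TATAAA, the CArG box and the MEF2 site. A GAANNTTC pair stood in Hspb1 (2 copies), Hspb3, Hspb8 and 1 of the 2 Hspb6 promoters, against 7.86% of 32817 promoters of the same length. In Hspb8 it lay at 2, after the start of transcription, and in Hspb6 at -120, before it. TTCNNGAA occurred in 8.51% of these promoters, CANNTG in 72.3%, TATAAA in 13.6%, the CArG box in 1.63% and the MEF2 site in 1.86%. The window of Hspb7 held an E-box and none of the other motifs. The 250 bases before the start are shown for 3 genes, as Hspb3 had the largest rise in quadriceps and Hspb7 the largest fall, and Hspb1 and Hspb7 were the members with and without heat shock element pairs that were both high in quadriceps library 3. Capitals mark GAANNTTC pairs, at -117 and -97 in Hspb1 and at -224 in Hspb3, and in Hspb3 also the MEF2 site at -12, which overlaps a TATAAA.
Hspb1, chr5:135887669-135887918, plus strand: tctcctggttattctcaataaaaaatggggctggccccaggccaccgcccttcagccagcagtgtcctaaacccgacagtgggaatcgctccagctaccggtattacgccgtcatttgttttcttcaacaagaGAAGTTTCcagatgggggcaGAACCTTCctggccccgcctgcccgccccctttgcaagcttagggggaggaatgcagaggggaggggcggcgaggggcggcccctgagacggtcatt
Hspb3, chr13:113663677-113663926, minus strand: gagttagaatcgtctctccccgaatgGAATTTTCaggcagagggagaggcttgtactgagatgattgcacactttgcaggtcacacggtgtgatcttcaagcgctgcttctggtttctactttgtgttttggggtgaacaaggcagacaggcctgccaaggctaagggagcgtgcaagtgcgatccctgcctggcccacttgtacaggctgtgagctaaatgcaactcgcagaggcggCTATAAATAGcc
Hspb7, chr4:141420529-141420778, plus strand: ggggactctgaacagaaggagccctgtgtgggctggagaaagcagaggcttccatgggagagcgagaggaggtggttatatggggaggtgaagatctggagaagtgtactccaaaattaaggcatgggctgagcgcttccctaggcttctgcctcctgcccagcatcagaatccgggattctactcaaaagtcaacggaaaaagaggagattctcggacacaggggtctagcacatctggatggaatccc
A match of letters is a description and shows neither binding nor regulation.

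Per length, measured as RPKM (counts relative to transcript length and library total, as deposited), the members covered about 2 orders of magnitude in both tissues. In the heart, Cryab was the highest at 950 ± 22 RPKM (SD, n = 3), which ranked 19 among the 24537 genes. Hspb7 followed at 514 ± 43 RPKM (rank 46) and Hspb6 at 492 ± 18 RPKM (rank 52), and these neighbours overlapped, with Hspb7 above Hspb6 in 2 of 3 libraries. Hspb8 stood at 139 ± 5.9 RPKM, Hspb2 at 20.0 ± 1.8 RPKM, Hspb1 at 10.8 ± 0.23 RPKM and Hspb3 at 8.50 ± 1.9 RPKM, each without overlap with the next. By these values Cryab, Hspb7 and Hspb6 were the abundant members of the heart, with Hspb8 in the middle and Hspb2, Hspb1 and Hspb3 low. In both tissues the places of Hspb1 and Hspb2 are uncertain. Of their 50-base words 51.6% and 28.0% occur in other genes, and their levels would be too low where such reads were dropped.

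In the quadriceps, Cryab was at 761 ± 422 RPKM (rank 26) and Hspb6 at 553 ± 111 RPKM (rank 31), and their ranges overlapped. Hspb8 was at 130 ± 34 RPKM and Hspb7 at 92.3 ± 54 RPKM (rank 249), also with overlapping ranges. Hspb3 was at 19.6 ± 2.6 RPKM and Hspb2 at 17.2 ± 2.4 RPKM, again overlapping, and Hspb1 was lowest at 8.77 ± 5.0 RPKM. Between the tissues, Hspb7 went from the second to the fourth place and Hspb3 from the seventh to the fifth. The summed RPKM of the 7 members was 2092, 2199 and 2110 in the heart and 1090, 1374 and 2279 in the quadriceps, so that quadriceps library 3 was above every heart library and the other two were below.

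**Figure D1:**
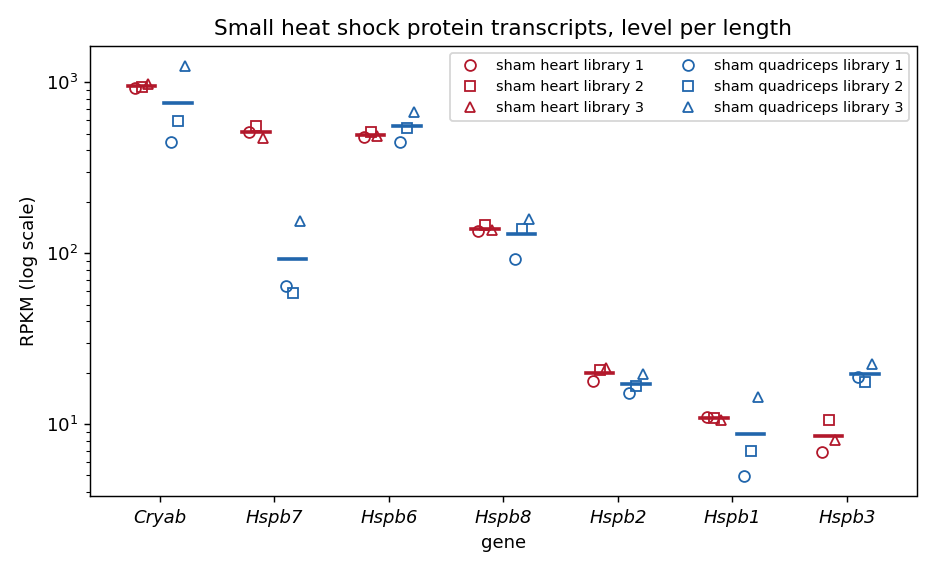
RPKM of each member on a log scale in the 3 sham heart libraries (red) and the 3 sham quadriceps libraries (blue), with a bar at each mean and 1 symbol per library number. The heart libraries lie close together, Hspb7 drops from 514 to 92.3 RPKM and Hspb3 rises from 8.50 to 19.6 RPKM, and quadriceps library 3 lies highest of the quadriceps libraries for every member. RPKM uses library totals, not TMM.

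With edgeR's quasi-likelihood test and Benjamini-Hochberg adjustment over all 24280 transcripts, 4 members were higher in quadriceps, 1 was lower and 2 did not pass an adjusted p of 0.05. Over all tested transcripts 66.6% passed (32.2% higher, 34.4% lower), so that a count of 5 among 7 genes is near this background. The median log2 fold change of the 7 members was 0.53, beside -0.05 over all genes. Libraries of the 2 tissues did not overlap for 4 of 7 members, against 72.6% of all tested transcripts. The study's methods looked for genes higher in quadriceps, with a log2 fold change above 2 and an unadjusted p under 0.05, which 7% of transcripts met and 0 of 7 members. Applied in the other direction as well, the same limits were met by 8.64% of transcripts (15.6% in all) and again by 0 members, although 5 had an unadjusted p under 0.05. Calls with library totals were 18443 of 24280 transcripts, 3240 higher and 15203 lower, beside 7828 higher and 8354 lower with TMM.

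Hspb3, a small member expressed in skeletal and heart muscle, had the largest rise among the members. Its CPM was 4.14, 6.26 and 4.87 in the heart and 17.5, 18.9 and 23.2 in the quadriceps. Every quadriceps library lay above every heart library. The log2 fold change was 1.96 ± 0.17 (SE, n = 3 per tissue; adjusted p = 7.8e-06 by edgeR), a 3.88-fold higher level. With library totals it was 1.20 (adjusted p = 0.00034), and leaving out any one library gave 1.83 to 2.14.

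Hspb2, the partner of Hspb3 in its complex and the neighbour of Cryab on the chromosome, was represented by NM_001164708. It had 7.75, 8.77 and 9.11 CPM in the heart and 10.1, 12.7 and 14.5 CPM in the quadriceps, without overlap. The log2 fold change was 0.53 ± 0.14 (SE, n = 3 per tissue; adjusted p = 0.0089 by edgeR), and its second row, NM_024441, gave 0.50 (adjusted p = 0.011). With library totals the value turned to -0.22 (adjusted p = 0.15).

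Hspb7, the filamin C binding member, was the only one lower in quadriceps by this test. Its CPM was 1100, 1175 and 1005 in the heart and 212, 222 and 565 in the quadriceps. The tissues did not overlap, but quadriceps library 3 was well above the other quadriceps libraries. The log2 fold change was -1.72 ± 0.34 (SE, n = 3 per tissue; adjusted p = 0.0017 by edgeR), which is 3.28-fold higher in the heart. It was -2.31 without quadriceps library 3 (adjusted p = 6.9e-06) and -2.48 with library totals, both larger in size than the value of Hspb3 in the same fit (1.86 and 1.20).

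Hspb8, the partner of Bag3, had 190, 201 and 190 CPM in the heart and 200, 347 and 379 CPM in the quadriceps. Quadriceps library 1 lay within the heart range and the other two above it. The log2 fold change of 0.67 ± 0.21 (SE, n = 3 per tissue) passed with an adjusted p of 0.018 by edgeR, but the call was lost without heart library 1 (adjusted p = 0.055), without heart library 3 (0.054) or without quadriceps library 3 (log2 fold change 0.53, adjusted p = 0.070). With library totals the log2 fold change was -0.10 (adjusted p = 0.65).

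Hspb6, which binds actin-associated partners and is a target of cyclic nucleotide-dependent kinases, had 489, 515 and 496 CPM in the heart and 709, 986 and 1167 CPM in the quadriceps. All quadriceps libraries were higher. The log2 fold change was 0.93 ± 0.18 (SE, n = 3 per tissue; adjusted p = 0.0012 by edgeR). With library totals it was 0.17 (adjusted p = 0.34), no longer past the threshold.

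Cryab and Hspb1, the classical stress-inducible members, were not called. Cryab, by NM_001289785, had 629, 624 and 652 CPM in the heart and 466, 710 and 1421 CPM in the quadriceps. Hspb1 had 7.73, 7.45 and 7.34 CPM in the heart and 5.37, 8.61 and 17.1 CPM in the quadriceps. For both genes quadriceps library 1 lay below the heart range and libraries 2 and 3 above it. The log2 fold change of Cryab was 0.45 ± 0.33 (SE, n = 3 per tissue; adjusted p = 0.26 by edgeR), with a 95% interval of -0.30 to 1.19, and the other 3 Cryab rows gave 0.44 to 0.45. That of Hspb1 was 0.44 ± 0.33 (SE, n = 3 per tissue; adjusted p = 0.26 by edgeR), with an interval of -0.31 to 1.18. These intervals hold both a lower and a 2-fold higher level in quadriceps, and both values turned to -0.08 without quadriceps library 3. Without quadriceps library 1 they were 0.76 and 0.77 and passed (adjusted p = 0.016 and 0.014).

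**Figure D2:**
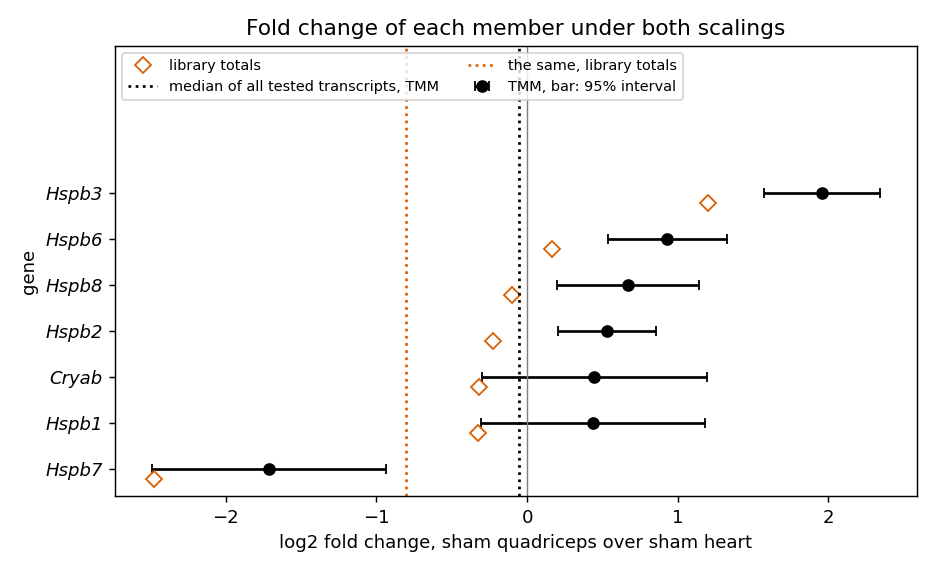
Log2 fold change of each member, quadriceps over heart, with TMM (black, 95% interval of the edgeR fit) and with library totals (open diamonds), and the medians of all 24280 transcripts as dotted lines at -0.06 and -0.80. Hspb3 stays above 0 and Hspb7 below 0 on both scales, Hspb6 drops from 0.93 to 0.17, and Hspb8, Hspb2, Cryab and Hspb1 change sign.

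Library totals shift nearly all transcripts by the same amount, so the members were also set against the median of all transcripts, which by construction leaves their order alike on both scales. With library totals, the log2 fold change minus the median of all transcripts was 2.01 for Hspb3, 0.97 for Hspb6, 0.71 for Hspb8, 0.58 for Hspb2, 0.48 for Cryab, 0.48 for Hspb1 and -1.67 for Hspb7. With TMM these differences were 2.01, 0.99, 0.73, 0.59, 0.50, 0.49 and -1.66, in the same order of genes.

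Shares within a library do not depend on the scale between libraries. Hspb7 made up 24.5%, 25.3% and 22.4% of the summed RPKM of the 7 members in the heart and 5.86%, 4.24% and 6.79% in the quadriceps. Its mean share was 24.1 ± 1.5% against 5.63 ± 1.3% (SD, n = 3 per tissue; exact two-sided permutation test, p = 0.1, adjusted p = 0.175). Hspb6 was at 23.0 ± 0.25% and 36.6 ± 6.3%, Hspb8 was at 6.51% and 8.50%, and Hspb3 at 0.397% and 1.33%, each without overlap and with the same exact p. An exact p of 0.1 is the smallest that 3 against 3 libraries can give, so none of these shares could pass. Cryab held 44.6 ± 1.7% and 46.2 ± 7.2% (exact p = 0.9), Hspb1 0.509% and 0.531% (exact p = 0.8) and Hspb2 0.938% and 1.16% (exact p = 0.3), all with overlapping libraries. Without quadriceps library 3 the difference in share, quadriceps minus heart, was -19.0 percentage points for Hspb7 (-18.4 with all libraries), -2.40 for Cryab (1.68 with all) and -0.027 for Hspb1 (0.023 with all). For Cryab it was 4.27 without quadriceps library 1, so its direction turned with the library left out. That of Hspb8 was 1.99 with all libraries and 1.19 without quadriceps library 2.

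**Figure D3:**
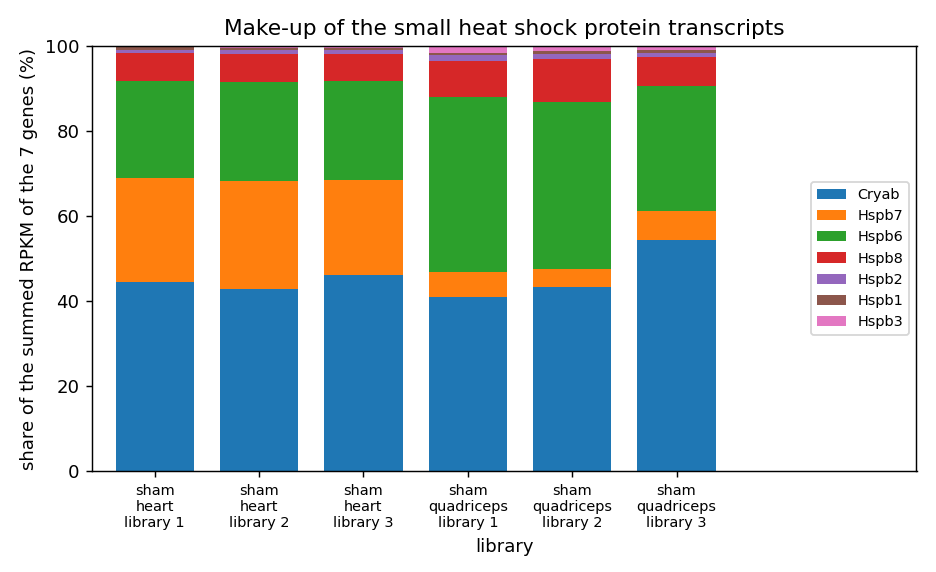
Stacked bars of the share of each member in the summed RPKM of the 7 members, from 0 to 100%, for each of the 6 libraries. The band of Hspb7 is 22.4% or more in every heart library and 6.79% or less in every quadriceps library, that of Hspb6 is at most 23.2% and at least 29.3%, and Cryab takes 41.1% to 54.4% throughout.

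Ratios between pairs of members gave the same picture in single libraries. Hspb7 over Hspb6 was 1.07, 1.09 and 0.968 in the heart and 0.143, 0.108 and 0.231 in the quadriceps. Hspb3 over Hspb2, whose proteins form a complex, was 0.380, 0.509 and 0.381 in the heart and 1.24, 1.06 and 1.14 in the quadriceps, so that Hspb3 was below Hspb2 in every heart library and above it in every quadriceps library. The neighbours Cryab and Hspb2 had ratios of 51.9, 45.5 and 45.7 in the heart and 29.5, 35.7 and 62.8 in the quadriceps, which overlap (exact two-sided permutation test of the log2 ratio, p = 0.5).

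Hspb1 and Cryab kept a nearly fixed ratio. The RPKM of Hspb1 as a percentage of that of Cryab was 1.19%, 1.15% and 1.09% in the heart and 1.11%, 1.17% and 1.16% in the quadriceps. Among the 21 pairs of members, the log2 ratio of this pair had the smallest range over the 6 libraries, 0.13, followed by 0.46 for Hspb2 and Hspb8. Counts of Hspb1 were 146 to 375 per library, and as a share of the counts of both genes they lay between 1.11% and 1.21%, with 95% Wilson intervals that reached from 0.970% to 1.37% and overlapped between all libraries. These intervals cover counting error only. The genes lie on different chromosomes and share no 50-base word.

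**Figure D4:**
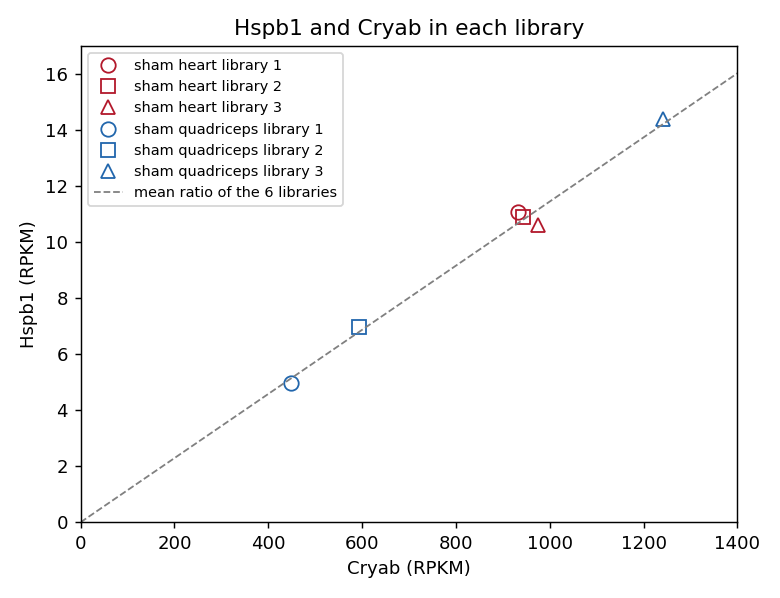
Hspb1 against Cryab, both in RPKM on linear axes from 0, for the 3 heart (red) and 3 quadriceps (blue) libraries, with a dashed line at the mean ratio of the 6 libraries. All libraries lie near the line although Cryab runs from 448 to 1240 RPKM, and quadriceps library 3 lies at the upper end.

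The quadriceps libraries differed more among themselves than the heart libraries for 6 of the 7 members. The SD of log2 CPM within the heart was 0.03 for Cryab, 0.04 for Hspb1 and 0.11 for Hspb7, and within the quadriceps it was 0.81, 0.84 and 0.80, where the median gene had 0.09 and 0.19. Hspb3 was the exception, with 0.30 in the heart and 0.21 in the quadriceps. Quadriceps library 3 held the highest value of every member. Its CPM over the mean of the other two was 2.60-fold for Hspb7, 2.41-fold for Cryab and 2.35-fold for Hspb1, each at the percentile 99.8 among 11799 genes. For Hspb2, Hspb3, Hspb6 and Hspb8 it was 1.26-fold to 1.39-fold, at the percentiles 92.6, 93.1, 96.7 and 97.0.

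Some other genes were high in this library as well, and examples are given here. The stress-inducible Hsp70 genes Hspa1a and Hspa1b, near-identical copies whose reads are uncertain between them, had 0.63, 2.97 and 14.6 CPM and 1.07, 3.60 and 22.7 CPM in the quadriceps libraries. Filamin C (Flnc), a client of this family, had 197, 233 and 490 CPM. Of the same Hsp70 list, Hspa8 had 63.3, 91.8 and 80.1 CPM and Hspa9 had 554, 344 and 473 CPM, neither highest in library 3. How many listed genes were highest there was not counted. Of the marker lists, the adipocyte sum was 522, 257 and 197 CPM in the quadriceps libraries, lowest in library 3, and the 7 tested adipocyte markers were each lowest there, among them adiponectin (Adipoq) with 43.5, 17.8 and 5.31 CPM and adipsin (Cfd) with 41.0, 19.4 and 4.35 CPM. The leukocyte sum was 50.3, 36.7 and 57.5 CPM. The cardiac marker sum was lowest in this library, at 100 CPM beside 132 and 263. The library had also the smallest total count, 23383452. The part of these other cell types and of library depth in the values of library 3 was not tested.

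By Euclidean distance between centred log2 CPM profiles over the 6 libraries, among 2379 well-expressed genes, the nearest gene to both Hspb1 (distance 0.32) and Cryab (0.35) was Nrap, an actin-binding protein of myofibril assembly. Nrap had 642, 693 and 612 CPM in the heart and 583, 750 and 1342 CPM in the quadriceps. The distance between Hspb1 and Cryab was smaller, 0.10. The second nearest were Flnc for Hspb1 (0.58) and nestin, Nes, for Cryab (0.56). Hspb2 was closest to the Hsp90 cochaperone Stip1 (0.14) and to Fto (0.16), Hspb3 to Abra (0.32) and Rragd (0.35), and Hspb6 to the proteasome subunit Psmc4 (0.21) and Anxa7 (0.22). Hspb8 was closest to Vps4a (0.19) and Anxa6 (0.24), and Hspb7 to the actin regulator Enah (0.53) and to Lmo7 (0.73). These distances are a description over 6 libraries of 2 tissues.

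The remaining small heat shock protein genes were low. Cryaa, Hspb9 and Odf1 had at most 3 counts in every library, and Hspb11, an intraflagellar transport protein, had 1.62, 1.75 and 1.02 CPM in the heart and 2.24, 2.13 and 2.15 CPM in the quadriceps (log2 fold change 0.56, adjusted p = 0.049 by edgeR; -0.18 with library totals).

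Of 15 Hsp70 and Hsp110 genes, the ATP-dependent chaperones that take over clients, 5 were higher and 6 lower in quadriceps with TMM, and 5 and 10 with library totals. Hspa1a (log2 fold change 5.25 ± 1.11, SE, n = 3 per tissue) and Hspa1b (5.17 ± 1.09) were the largest rises. Both had under 1 CPM in every heart library. In the quadriceps both were highest in library 3, at 14.6 and 22.7 CPM, well above the other quadriceps libraries. Hspa4l, an Hsp110 protein, fell by 2.11 and Hyou1, which acts in the endoplasmic reticulum, fell by 1.45. Of 15 Hsp90 chaperones and cochaperones 9 were higher and 5 lower (3 and 6 with library totals). Fkbp5, a glucocorticoid-induced cochaperone, rose by 1.90 and the myosin chaperone Unc45b by 1.24, while Hsp90b1 of the endoplasmic reticulum fell by 1.30 and Hsp90aa1 by 0.97. The directions of these 8 genes were the same with library totals.

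Of 19 tested J-domain cochaperones, which stimulate Hsp70, 10 were higher and 3 lower (2 and 11 with library totals). Dnajc27 rose by 2.37 and Dnajb5 by 1.57, and Dnajb4 fell by 0.64 and Dnajc10 by 0.56. Of 16 chaperonins and mitochondrial chaperones 6 were higher and 1 lower (2 and 10 with library totals), with Hspe1, the mitochondrial Hsp10, up by 1.22, the chaperonin subunit Cct6a up by 1.09 and the protease Lonp1 down by 0.72. Of 5 tested heat shock factors and regulators 4 were higher and 0 lower (2 and 2 with library totals). Hsf4 rose by 1.44, at 0.80 to 3.09 CPM over all libraries, and Hsf2 by 1.22. The named genes of these groups kept their direction with library totals.

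Among 11 genes of chaperone-assisted selective autophagy and BAG proteins 3 were higher and 4 lower (2 and 8 with library totals). Bag3, the partner of Hspb8, had 253, 246 and 251 CPM in the heart and 113, 148 and 149 CPM in the quadriceps. All quadriceps libraries were lower, with a log2 fold change of -0.87 ± 0.13 (SE, n = 3 per tissue; adjusted p = 0.00023 by edgeR), opposite in sign to that of Hspb8 on the TMM scale. Synpo2, which links Bag3 to the autophagosome machinery, rose by 1.13 and the autophagy receptor Sqstm1 by 1.12, and Bag6 fell by 0.89.

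Among 11 clients and binding partners 4 were higher and 6 lower (2 and 6 with library totals). The intermediate filament protein synemin (Synm) had 9.45, 8.98 and 9.18 CPM in the heart and 678, 763 and 944 CPM in the quadriceps, a log2 fold change of 6.43. Titin (Ttn) rose by 1.53, and filamin A (Flna) fell by 1.52 and alpha-actinin 2 (Actn2) by 1.28. Among 11 tested genes listed for kinases and phosphatase control of small heat shock proteins, 7 were higher and 3 lower (4 and 5 with library totals). The protein phosphatase 1 inhibitor Ppp1r1a rose by 5.18 and Mapk12, a p38 kinase of skeletal muscle, by 2.97, while Prkaca, the catalytic subunit of protein kinase A, fell by 1.40 and Prkd1 by 1.05. Over all genes, with 1 transcript each, 4792 of 14895 were higher and 5034 lower with TMM.

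Among the nearest coding genes on the chromosomes that did not overlap the members, 2310030G06Rik and 1110032A03Rik, on the flanks of the Hspb2 and Cryab pair, both rose (log2 fold change 1.06 and 1.59), as did Ywhag beside Hspb1 (0.83). Srrm4 beside Hspb8 fell by 5.55, from 20.0 to 22.1 CPM in the heart to 0.21 to 0.63 CPM in the quadriceps. Snx18 beside Hspb3 fell by 0.34.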

How the data were processed

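Of the 9 libraries of the series, 3 of sham heart and 3 of sham quadriceps muscle were used. The authors prepared libraries with the ScriptSeq v2 kit and processed single-end reads with Trim Galore, STAR (mm10) and Rsubread. Their table gives, per RefSeq transcript, deposited raw counts and deposited RPKM values, which equal the counts over transcript length and library total. The log2 fold changes, F scores and p-values from the authors' own edgeR comparison were left aside.

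The count test was the quasi-likelihood test of edgeR 4.0.16 (R 4.3.3) with TMM. Transcripts entered where over 5 counts were present in 2 libraries or more, and p-values were adjusted after Benjamini-Hochberg with a threshold of 0.05. The transcript with the highest mean RPKM stood for a gene. Members and gene lists were chosen with earlier results of these data known. From each gene list the text names the 2 largest rises and the 2 largest falls among called genes without overlap between the tissues. Genes with at most 3 counts in every library of a tissue were left out. For each member the 2 nearest genes are named. Others were added for the comparison they stand in, namely Flnc, Hspa8, Hspa9, Adipoq and Cfd in quadriceps library 3 and the neighbours on the chromosome. Myl7, Nppa and the lower slow fibre markers were added from the marker lists. Replicate libraries differed by more than sampling noise, with a smallest chi-square per df of 7.15. In simulated counts for this comparison (23867 transcripts), the test recovered 86% of 100 transcripts set to a log2 fold change of 1 and 99% of 100 set to 2, and 5.61% of its calls were false. The changed transcripts had a mean above 1 CPM and moved evenly up and down, and all others had equal means in both tissues. The simulation therefore held no shift in scale between the tissues, and its rates do not cover the choice between TMM and library totals. Alternatives were DESeq2 1.42.0, limma 3.58.1 on log2(RPKM + 0.5) or log2(RPKM + 0.1), other count filters, library totals, a replicate block and leaving out each library. Positions are from GENCODE vM21, and not every neighbouring gene is reported here. Python 3.11.15, pandas 2.3.3, numpy 2.4.6 and scipy 1.17.1 served outside R.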

Additional observations from a re-analysis of the deposited data

How the results depend on the processing

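Scaling decided most directions. With library totals in place of TMM, 2 members (Hspb3 and Hspb7) were called in place of 5, and the log2 fold changes of Hspb1, Hspb2, Hspb8 and Cryab turned to -0.33, -0.22, -0.10 and -0.32. With limma on log2 RPKM, which also rests on library totals, 2 members were called with either pseudocount, and these genes had -0.42, -0.22, -0.13 and -0.46 at a pseudocount of 0.5 and -0.45, -0.22, -0.13 and -0.46 at 0.1. The criterion of a log2 fold change beyond 2 with an unadjusted p under 0.05 called 0 members in the main fit. Hspb7 met these limits with library totals (-2.48), with limma (-2.61 and -2.62) and without quadriceps library 3 (-2.31). Hspb3 met them without heart library 2 (2.14). Hspb3 and Hspb7 kept their direction and their call in all 14 alternatives. Leaving out 1 library gave 4 to 7 called members, with log2 fold changes of -0.080 to 0.77 for Hspb1, -0.081 to 0.76 for Cryab, 0.53 to 0.93 for Hspb8 and -2.31 to -1.46 for Hspb7; the lowest values of Hspb1, Cryab and Hspb7 came without quadriceps library 3 and the highest of Hspb1 and Cryab without quadriceps library 1. An arm of 2 libraries remained in these fits. The 16182 called transcripts became 9786 with 1 transcript a gene, which tests fewer rows, and the 3796 beyond a log2 fold change of 2 became 2401 in that fit, 1700 with at least 10 counts in every library and 1896 with limma at a pseudocount of 0.5. With counts in place of RPKM, the difference in share was -31.9 percentage points for Hspb7 and 4.72 for Hspb8, and libraries of the tissues did not overlap for any of the 7 shares, while with RPKM those of Cryab, Hspb1 and Hspb2 did.

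Deviations of same-numbered libraries from their group means correlated at 0.015, -0.124 and -0.029. Such values cannot show whether same-numbered libraries came from the same animal, which the labels do not say. A replicate block gave 15716 called transcripts and changed no call among the members. The alternatives planned for TAC were not run, as the table lists no member. Counting error weighs most on Hspb1, Hspb2 and Hspb3, which had 146 to 375, 256 to 441 and 197 to 477 counts a library.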
